A study of Mus musculus with 19 samples.

Results

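The comparison set all mammary tumours with a floxed integrin genotype against tumours with intact integrin genes, and asked which transcripts differed in 1 direction whichever integrin had been removed. The members were chosen by the genotype label alone: 14 of the 19 arrays of the study, against the other 5. All mice were of the MMTV-NIC model, in which the mouse mammary tumour virus promoter drives an activated ErbB2 and Cre recombinase from 1 transcript, so every group carried the oncogene and Cre. By the study's design deletion was directed to mammary epithelium. The control group was NIC WT (5 arrays). The knockout groups were NIC with itgb1 fl/fl (beta 1 integrin knockout, 4 arrays), NIC with itgb3 fl/fl (beta 3 integrin knockout, 4 arrays) and NIC with both itgb1 fl/fl and itgb3 fl/fl (labelled double knockout, 6 arrays). The labels give no age, and say neither whether tumours came from separate mice nor in which batches arrays were run. The p-values therefore measure the spread between these samples, which may in part be technical. RNA came from whole end-burden tumours, in which stromal, vascular and immune cells are present beside the epithelium, and deletion by cell type was not measured.

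Integrins are paired alpha and beta membrane receptors that tie cells to the extracellular matrix and signal through focal adhesion adaptors and Src family kinases. Beta 1 pairs with many alpha subunits to bind collagen, laminin and fibronectin, and beta 3 forms the vitronectin receptor. In mammary epithelium adhesion through beta 1 is known to support milk protein expression and proliferation, and integrins cycle continuously between the cell surface and endosomes.

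The values were log2 intensities per probe set, where 1 unit is a factor of 2, and 14231 genes were tested. Array medians were 4.32 to 4.48. Among markers of luminal epithelium, Krt8, Krt18, Epcam and Cdh1 reached the intensity filter (4.38, the median of the table) on all 19 arrays and Krt19 on 18. In bulk tumour RNA, fewer cells of a type and less RNA per cell cannot be told apart.

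Itgb1, the targeted beta 1 subunit gene, was 9.83 to 10.32 on the 5 control arrays. It read 8.39, 8.52, 8.98 and 8.91 in the 4 Itgb1 knockouts, and 7.93 at the lowest, 8.15 at the median and 9.20 at the highest of the 6 labelled double knockouts. The Itgb3 knockouts were at 9.95, 9.81, 10.15 and 10.26. The 10 arrays of both Itgb1-floxed groups thus lay below every control, and the Itgb3 knockouts overlapped the controls. Averaged over the 3 groups, Itgb1 fell by 1.14 (SE 0.165, limma adjusted p = 0.0217), with group differences of −1.46, −0.12 and −1.84 in the order Itgb1 knockout, Itgb3 knockout and labelled double knockout, the order used throughout. The mean of the 14 knockout arrays was −1.24 from that of the controls (exact two-sided permutation p = 0.00559, 0.0168 adjusted over 3 genes).

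Itgb3, the beta 3 subunit gene, went against 1 of the labels. Controls lay between 7.72 and 8.41, the Itgb3 knockouts at 6.34, 7.31, 6.97 and 7.40, and the labelled double knockouts between 7.69 and 8.55 with a median of 8.20. The 4 Itgb3 knockouts were below all controls, and the labelled double knockouts were not. Group differences were 0.12, −1.12 and 0.01, and the 14 arrays differed from control by −0.28 (exact two-sided permutation p = 0.399). Every statement on the labelled double knockouts carries that limit. Erbb2, the driver gene, had group differences of −0.24, −0.13 and −0.08 (all 14 arrays −0.14, exact permutation p = 0.369, 0.399 adjusted), and whether its probe set reads the transgene was not tested.

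**Figure D1:**
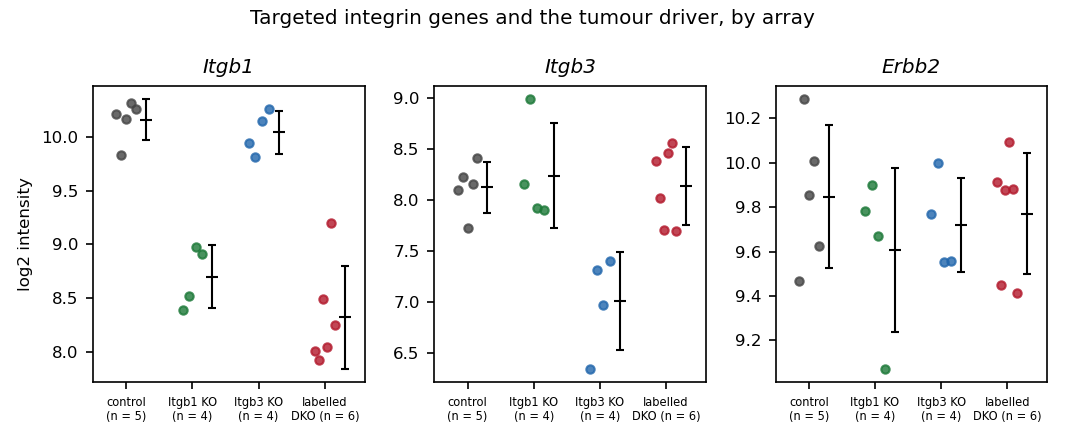
Log2 intensity of Itgb1, Itgb3 and Erbb2 on each array (points) by group, with the group mean and SD (bars at the right of each group). Itgb1 is low in the Itgb1 knockouts and labelled double knockouts, Itgb3 only in the Itgb3 knockouts, and the Erbb2 values of the groups overlap.

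Across the genome, 1 of 14231 genes (0.00703%) passed at a limma adjusted p of 0.05: Itgb1, which is lower, with 0 higher. The next smallest adjusted p was 0.394. At an unadjusted p under 0.05 there were 955 genes (6.71%), 615 higher and 340 lower in the knockouts. About 712 would be expected by chance if no gene differed. The intensity filter can admit a gene through knockout arrays alone, which selects for higher values there. With no filter on dim probe sets the split was 809 higher and 757 lower, so the tilt of 615 to 340 depended on the filter. A gene was called of 1 direction when its difference from control had the same sign in all 3 groups, whatever its size. This held for 3483 genes on the higher side (24.5%) and 2721 on the lower side (19.1%). The 3 differences share the same 5 controls, which by itself favours a common sign, so these shares are the background for every count below. The median pooled difference over all genes was 0.02.

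Leaving out the labelled double knockouts, 0 genes passed and 758 had an unadjusted p under 0.05, near the 712 expected by chance. Without the Itgb1 knockouts 0 passed as well. Itgb1 also failed to pass (0 genes) in turn without control replicate 1, 3, 4 or 5, Itgb1 knockout replicate 2, or Itgb3 knockout replicate 1 or 2.

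Cdk6, the kinase that with D-type cyclins drives exit from G1, had the smallest p beside Itgb1, and its 3 group differences were nearly the same. The 250 bases before its RefSeq start are shown because no other gene outside the floxed ones had so small a p.

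Cdk6, GRCm38.p6 chr5:3343643-3343892, plus strand: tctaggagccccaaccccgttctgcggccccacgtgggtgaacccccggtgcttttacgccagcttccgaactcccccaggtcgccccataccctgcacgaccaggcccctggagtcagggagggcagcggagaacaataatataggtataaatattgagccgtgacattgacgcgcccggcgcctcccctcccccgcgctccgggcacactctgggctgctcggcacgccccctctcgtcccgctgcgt

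Controls read 7.30, 7.58, 6.85, 7.14 and 7.52 for Cdk6. The Itgb1 knockouts read 6.33, 6.60, 6.49 and 6.35, the Itgb3 knockouts 6.46, 6.59, 6.67 and 6.17, and the labelled double knockouts 6.07 at the lowest, 6.29 at the median and 7.15 at the highest. Both single knockout groups lay wholly below the controls, and 12 of the 14 knockout arrays did. The group differences were −0.84, −0.80 and −0.81, with a mean of −0.82 (SE 0.160, 1.76-fold, adjusted p = 0.394), which did not pass. Without the labelled double knockouts the mean was −0.82 (adjusted p = 0.221). Leaving out single arrays moved it between −0.93 and −0.74, and Cdk6 passed (adjusted p = 0.0446) without labelled double knockout replicate 4, one of the 2 arrays that reached into the control range. Among its relatives in the cell cycle list, chosen after their values were seen, Cdk4 differed by −0.21, −0.19 and −0.17 and Cdk2 by −0.12, −0.31 and −0.22.

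Rab4a encodes a small GTPase of early endosomes that returns receptors, integrins among them, to the surface by the short recycling route. Its levels were 5.54, 5.38, 5.73, 5.41 and 5.12 in control and 6.47, 6.11, 6.23 and 6.59 in the Itgb1 knockouts. They were 5.61, 6.55, 5.83 and 5.96 in the Itgb3 knockouts, and 5.77, 6.13 and 6.50 at the lowest, median and highest of the labelled double knockouts. Every knockout array but Itgb3 knockout replicate 1 exceeded every control. The differences of 0.91, 0.55 and 0.67 gave a mean of 0.71 (SE 0.143, 1.64-fold, adjusted p = 0.394). Where Rab4a lies on the chromosome relative to the floxed genes was not examined.

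Acaa1b encodes a peroxisomal thiolase of fatty acid oxidation and closely resembles Acaa1a, so that its probe set may read both, which was not tested. Control arrays read 4.97, 4.76, 4.72, 5.01 and 5.12. The Itgb1 knockouts read 5.59, 5.10, 5.45 and 5.41, the Itgb3 knockouts 5.56, 6.14, 5.21 and 5.66, and the labelled double knockouts 5.19, 5.53 and 5.91 at the lowest, median and highest. Itgb1 knockout replicate 2 was the single array not above all controls. The mean difference was 0.61 (SE 0.132, adjusted p = 0.528), from 0.47, 0.73 and 0.64.

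Klc3, a kinesin light chain of microtubule transport, followed the same layout. Controls lay between 6.88 and 7.41, the Itgb1 knockouts at 7.68, 7.59, 7.57 and 7.71, the Itgb3 knockouts at 7.21, 7.78, 7.58 and 7.47, and the labelled double knockouts between 7.42 and 8.11. Itgb3 knockout replicate 1 alone fell within the control range (mean difference 0.51, SE 0.114, adjusted p = 0.556). Dapk2, a calcium-regulated death-associated kinase, was at 4.40 to 4.94 in control, 4.82 to 5.16 in the Itgb1 knockouts, 5.03 to 5.46 in the Itgb3 knockouts and 5.17 to 5.55 in the labelled double knockouts. Itgb1 knockout replicate 2 alone did not exceed all controls (0.45, SE 0.103, adjusted p = 0.556).

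Barx2, a homeobox transcription factor gene, had one of the larger differences and an uneven control group. Controls read 6.38, 4.56, 6.91, 5.71 and 6.95, an SD of 1.00. The Itgb1 knockouts were at 7.30, 7.17, 7.90 and 7.43, the Itgb3 knockouts at 6.61, 7.43, 7.31 and 6.41, and all labelled double knockouts between 7.34 and 7.51. The knockouts gathered near the upper end of the control range or above it, and 12 of 14 exceeded every control. The differences were 1.34, 0.84 and 1.33 (mean 1.17, SE 0.278, adjusted p = 0.564), and the mean was 0.79 without control replicate 2, the lowest array.

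The other genes with the smallest p on the higher side did not pass either, with adjusted p from 0.503 to 0.572. They were the centrosomal gene Cep112 (0.44), the vesicle cytochrome gene Cyb561 (0.48), the cytochrome c oxidase assembly gene Cox20 (0.51), Zfp329 (0.49), Pusl1 (0.63), Plcxd2 (0.41) and the noncoding Foxd2os (0.61). Plcxd2 was under the intensity filter on all 5 controls and 8 knockout arrays, and Foxd2os on 4 and 4. Plcxd2 thus entered the test through knockout arrays alone, which selects for higher values there. Foxd2os was also uneven, at 0.54, 0.13 and 1.15, and differed among the knockout groups (moderated F, adjusted p = 0.0166). Cep112 (0.21, 0.51 and 0.60) and Cyb561 (0.30, 0.35 and 0.80) were uneven too, and did not pass the moderated F (adjusted p = 0.155 and 0.0863). Where Cep112 and Cyb561 lie on the chromosome relative to the floxed genes was not examined.

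On the lower side, Pag1 encodes a membrane adaptor that recruits the kinase which restrains Src family members. Its controls read 5.71, 5.85, 5.79, 5.80 and 6.08, the Itgb1 knockouts 5.53, 4.96, 5.37 and 5.27, and the Itgb3 knockouts 5.53, 5.53, 5.43 and 5.46. The labelled double knockouts were at 5.15, 5.58 and 5.97 at the lowest, median and highest. Replicate 5 of that group alone was not below all controls (mean difference −0.40, SE 0.109, adjusted p = 0.682).

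Snx1, a sorting nexin that retrieves cargo from endosomes, read 9.32, 9.90, 9.93, 9.42 and 9.24 in control. It was at 9.13, 8.42, 9.03 and 8.99 in the Itgb1 knockouts, 9.50, 8.55, 8.99 and 8.85 in the Itgb3 knockouts and between 8.12 and 9.24 in the labelled double knockouts, with a median of 9.02. Itgb3 knockout replicate 1 was the exception among 14. The differences were −0.67, −0.59 and −0.70 (mean −0.65, SE 0.182, adjusted p = 0.682). Sipa1, a GTPase-activating protein for Rap1, which switches integrins on, differed by −0.51, −0.36 and −0.40 (mean −0.42, SE 0.117, adjusted p = 0.682).

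**Figure D2:**
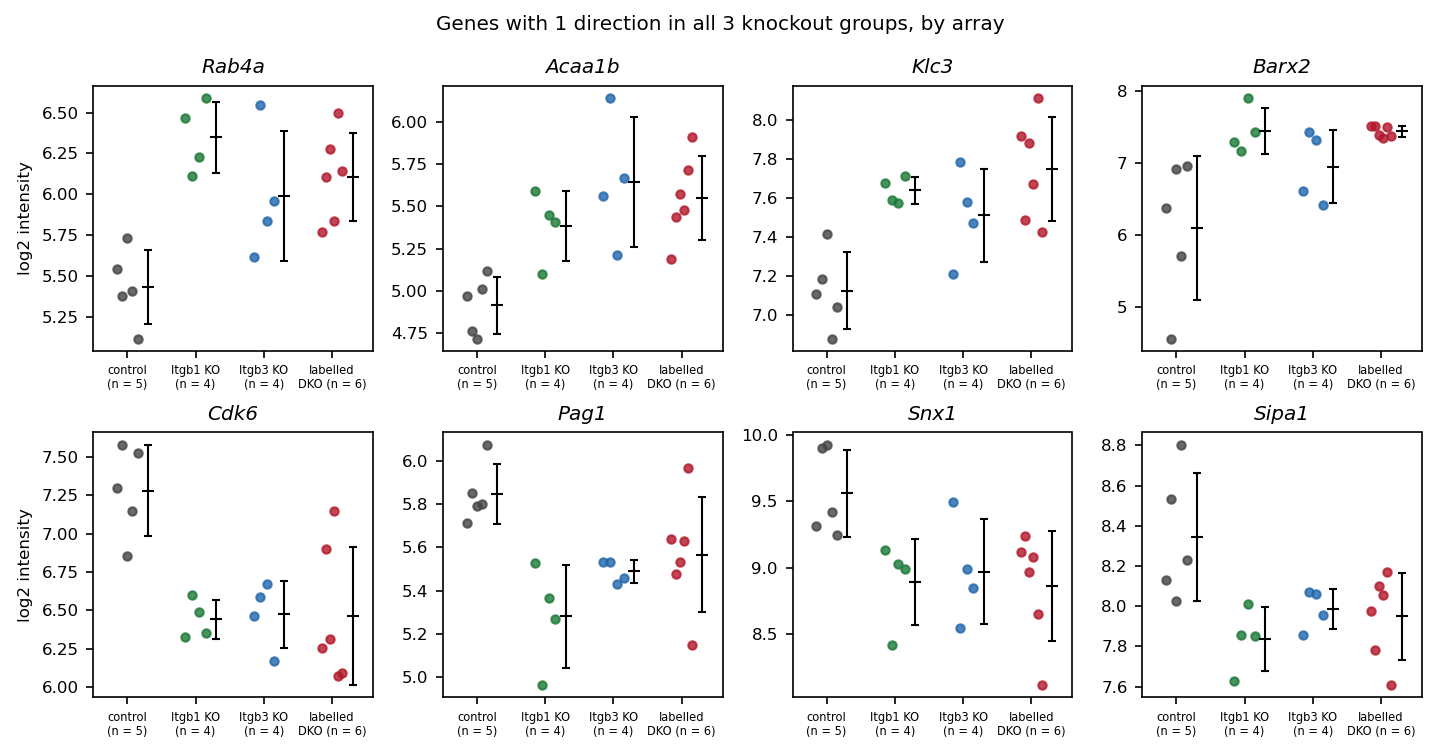
Log2 intensity of 8 genes with 1 direction in all 3 groups on each array (points), with group mean and SD (bars). For Rab4a, Acaa1b and Klc3 1 knockout array reaches into the control range, and for Pag1 and Snx1 likewise from below; for Cdk6 2 labelled double knockouts do.

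Galnt12, which starts O-linked glycosylation, and Pygl, the liver form of glycogen phosphorylase, had larger but less even differences. Galnt12 read 5.64 and 5.74 on control replicates 1 and 4 and up to 7.56 on the other controls, 5.34, 5.31, 5.21 and 5.77 in the Itgb1 knockouts, and 6.01, 5.97, 5.40 and 6.74 in the Itgb3 knockouts. The labelled double knockouts lay between 3.89 and 5.81. The controls fell into a low pair and a high trio, and the Itgb3 knockouts lay within the control range but for 1 array (differences −1.25, −0.63 and −1.79, mean −1.23, SE 0.323, adjusted p = 0.682). For Pygl the differences were −1.34, −0.39 and −1.46 (mean −1.06, SE 0.288, adjusted p = 0.682). The actin bundler gene Pls1 (−0.64), the kinase gene Map3k4 (−0.32), the sphingomyelin synthase gene Sgms2 (−0.53), Zfp456 (−0.32) and Ppp4r4 (−0.46) had adjusted p from 0.556 to 0.682. Ppp4r4 was under the filter on 1 control and 12 knockout arrays. Ppp4r4 (−0.48, −0.17 and −0.73) and Pls1 (−0.60, −0.33 and −0.99) were uneven among the groups. The Zfp456 controls lay very close together (SD 0.012), and Itgb1 knockout replicate 4 was above them all.

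**Figure D3:**
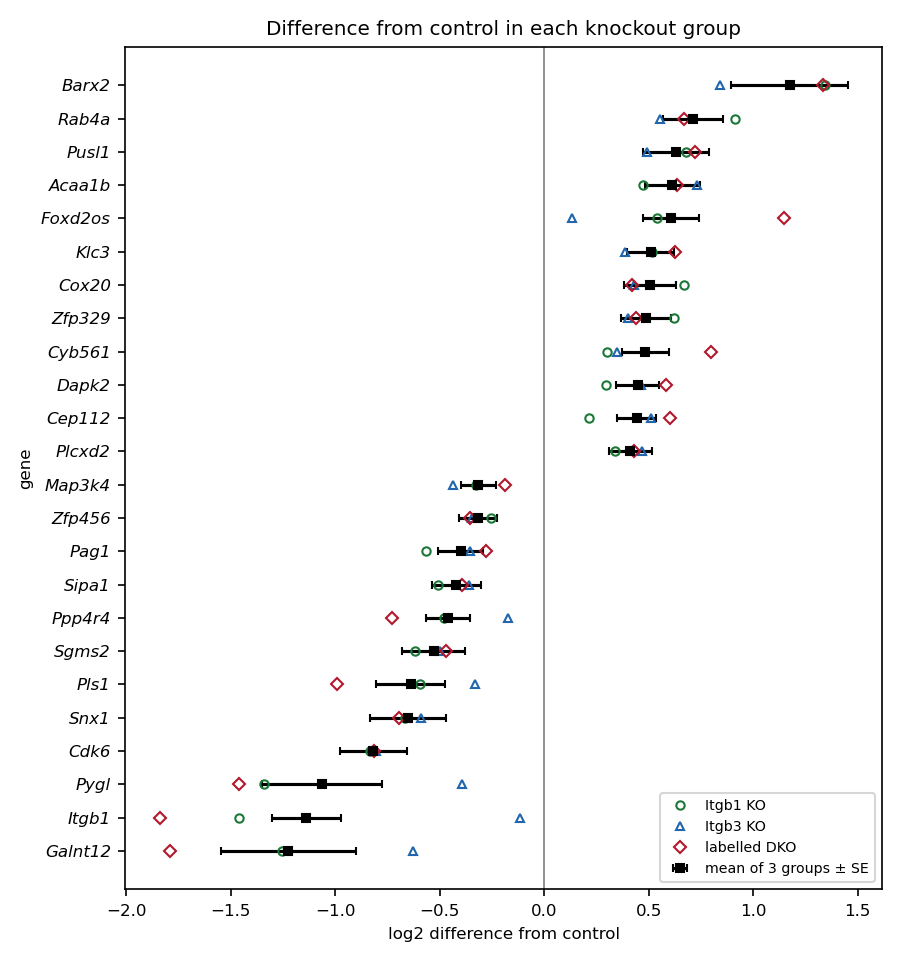
Log2 difference from control for the 12 genes with the smallest p in each direction among genes of 1 direction. Black squares with bars are the mean of the 3 groups and its SE, and open symbols are the 3 groups; the symbols coincide for Cdk6 and lie far apart for Itgb1, Pygl, Galnt12 and Foxd2os.

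Ranking by the weakest of the 3 groups instead of by p picked genes with large and noisy differences. Cldn2, which encodes a pore-forming claudin of tight junctions, read 6.59, 4.29, 7.02, 4.78 and 3.67 in control. It was at 7.93, 6.59, 7.20 and 8.70 in the Itgb1 knockouts, 5.09, 7.47, 9.73 and 6.21 in the Itgb3 knockouts, and between 5.12 and 8.97 in the labelled double knockouts. Only 6 of 14 exceeded every control, and the spread within groups was as wide as the difference (mean 1.79, SE 0.699, adjusted p = 0.744). Hhipl2, a relative of the hedgehog-interacting protein gene, had controls at 6.23, 5.49, 9.67, 6.31 and 9.15. Of the 14 knockouts 6 exceeded every control and the others lay within the control range (mean difference 1.51, SE 0.655, adjusted p = 0.744). The calcium sensor gene Vsnl1 (1.91) was under the filter on 3 controls and 3 knockout arrays, and the transporter gene Slc10a5 (0.96) on 2 and 2.

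Gstm2, a glutathione transferase of a family of similar genes, had the most even of the large lower differences, at −0.97, −0.94 and −1.05. Its controls read 7.20, 8.71, 7.44, 7.94 and 8.46, the Itgb1 knockouts 7.50, 6.11, 8.12 and 6.20, the Itgb3 knockouts 7.15, 5.91, 7.57 and 7.43, and the labelled double knockouts between 6.51 and 7.47. The groups overlapped, with 9 of 14 knockouts below every control (mean −0.98, SE 0.321, adjusted p = 0.688). Tlcd2 (−1.44), the cation channel gene Trpm3 (−1.17), the complement protease gene Masp1 (−1.18) and the sorting nexin gene Snx22 (−1.17) had adjusted p = 0.744. Trpm3 was at 6.61 to 7.38 in control and Itgb1 knockout replicate 1, at 7.93, was above them all. Masp1 was under the filter on 1 control and 6 knockout arrays.

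No gene had all 14 knockout arrays beyond all 5 controls. With 13 of 14 there were 13 genes above (0.0913% of those tested) and 8 below (0.0562%). Besides the genes described, those above were the lysophospholipid transporter gene Mfsd2a, the secretory pathway genes Yipf6, Stx16 and Tmed2, the dynein light chain gene Dynll1, the kinase-assembly gene Tti2 and the centromere gene Cenpb, and those below were Shisa2 and Cdc23, a subunit gene of the anaphase-promoting complex. These were chosen after their values were seen, and 4 of the 21 are a taste receptor gene and uncharacterised transcripts, not named here. Their differences were small: Tmed2 0.16, Tti2 0.22, Stx16 0.25, Dynll1 0.29, Yipf6 0.35, Cenpb 0.35, Mfsd2a 0.69, Cdc23 −0.27 and Shisa2 −0.34. The lone array within the control range was Itgb3 knockout replicate 1 for Rab4a, Klc3 and Snx1, and Itgb1 knockout replicate 2 for Acaa1b, Dapk2 and Dynll1. Itgb1 knockout replicate 1 was that array for Mfsd2a, which like Dynll1 was under the filter on all 5 controls. Both thus entered through knockout arrays alone, which selects for higher values there, and the count of 13 includes them. These counts rest on the extremes of 5 controls: without control replicate 1, 2, 3, 4 or 5 in turn they were 35, 38, 53, 33 and 25 above and 29, 15, 35, 19 and 14 below. The count below was 13 without labelled double knockout replicate 4 or 5 or Itgb1 knockout replicate 3, and that of genes with all knockout arrays beyond the controls reached 20 without control replicate 3.

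A stricter form of 1 direction, an unadjusted p under 0.05 in each of the 3 groups, held for 59 of the 14231 genes, 43 higher and 16 lower. The 43 include Plcxd2, Mfsd2a, Cyp7b1 and Tmem239, which were under the intensity filter on all 5 controls. Such genes entered through knockout arrays alone, which selects for higher values there, so the split of 43 to 16 is not a result by itself. The 3 tests share the same 5 controls, so the count expected by chance is not known. Yes1, a Src family kinase gene, was among the 59 with differences of 0.23, 0.23 and 0.22 (mean 0.23, SE 0.0843, adjusted p = 0.744). Its controls lay between 7.59 and 7.98 and its knockouts between 7.81 and 8.16, so the groups overlapped. Of the genes with array values above, Acaa1b, Rab4a, Snx1, Cdk6, Klc3, Dapk2, Pag1, Barx2 and Gstm2 were in this set, and Galnt12, Cldn2 and Hhipl2 were not. All had been picked from these same values, so a place in the set is no separate support.

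Differences among the 3 knockout groups were tested with a moderated F, in which 156 genes passed (1.1%). Of these, 8 had 1 direction against control in all groups. Itgb1 was one (adjusted p = 0.0018), with Itga2 (0.0409), the partner of beta 1 in a collagen receptor, Cd14 (0.0166), the endotoxin co-receptor of macrophages, and Wnt5a (0.0324), a Wnt ligand gene. Itga2 was at 4.64 to 5.12 in control, 4.81 to 5.57 in the Itgb1 knockouts, 4.64 to 5.05 in the Itgb3 knockouts and 5.52 to 6.49 in the labelled double knockouts. Cd14 was at 6.67 to 7.97 in control, 7.15 to 8.12 and 7.58 to 7.94 in the single knockouts, and 8.47 to 9.36 in the labelled double knockouts. Wnt5a was at 4.06 to 4.75, 4.30 to 5.13, 4.42 to 4.79 and 5.02 to 6.01. For Itga2, Cd14 and Wnt5a the labelled double knockouts stood highest, and the pooled differences (0.43, 0.73 and 0.51) averaged unequal groups. The count of 156 was 254 without Itgb1 knockout replicate 1, and 18 to 100 without each of the other single knockout arrays or of labelled double knockout replicates 1, 2, 3 and 4.

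The other genes of each pathway are given by lists written from general knowledge, as counts beside the background of 24.5% higher and 19.1% lower in all 3 groups. Of the 31 lists with at least 5 measured members, only the integrin subunit list held a gene that passed, Itgb1. Among integrin subunits 6 of 24 measured genes were higher in all 3 groups and 3 lower, a share near the background. Of members chosen after their values were seen, Itga1 differed by −0.34, −0.59 and −0.54, the laminin-binding Itga6 by −0.046, −0.0038 and −0.25, and Itgb8 by 0.23, 0.20 and 0.45, none passing. Among focal adhesion and adhesion signalling genes 3 of 29 were higher and 7 lower, with the adaptor gene Pxn at −0.39, −0.26 and −0.25 (mean −0.30, adjusted p = 0.708). Among the vesicle recycling genes 4 of 20 were higher and 5 lower, with Rab11a, of the long recycling route, at 0.22, 0.12 and 0.21 (mean 0.18, adjusted p = 0.744).

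Interferon response genes, which encode antiviral effectors induced through the interferon receptor, had the largest share of lower members among the 31 lists. Of 25 measured, 20 were lower in all 3 groups and 0 higher, 10 had an unadjusted p under 0.05 and 0 passed. The median difference was −0.60, against 0.02 for all genes, and −0.33, −0.29 and −1.14 by group. The promoters of a pair of members are shown, the first with the core of the interferon-stimulated response element in capitals (GAAACNGAA, sought on both strands) and the second with no match.

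Ifit3, GRCm38.p6 chr19:34583279-34583528, plus strand: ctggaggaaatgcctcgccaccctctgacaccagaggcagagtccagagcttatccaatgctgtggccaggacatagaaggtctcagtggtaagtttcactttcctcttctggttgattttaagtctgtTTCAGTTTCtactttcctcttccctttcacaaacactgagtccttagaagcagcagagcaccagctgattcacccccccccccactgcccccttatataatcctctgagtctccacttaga

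Xaf1, GRCm38.p6 chr11:72301379-72301628, plus strand: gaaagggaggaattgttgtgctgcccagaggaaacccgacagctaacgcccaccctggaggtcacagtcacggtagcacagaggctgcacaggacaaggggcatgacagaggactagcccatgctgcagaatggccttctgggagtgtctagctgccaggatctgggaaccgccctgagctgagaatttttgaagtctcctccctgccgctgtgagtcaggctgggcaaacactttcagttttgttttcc

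The core was found in the 250 bases before the start of 5 of the 17 interferon genes listed in the RefSeq promoter table (29.4%), against 1.65% of 27025 genes in it. These were Ifit1, Ifit3, Isg15, Stat2 and Bst2, with pooled differences of −1.27, −0.43, −0.69, −0.54 and −1.25. Of the 59 genes above, 47 were listed and 1 held the core (2.13%). AP-1 sites (TGANTCA) were in 5 of the 17 and 3 of the 47 (29.4% and 6.38%, against 6.87%), TEAD sites (GGAATG) in 1 and 5 (5.88% and 10.6%, against 12.6%), and cAMP response elements (TGACGTCA) in 0 and 3 (6.38% of the 47, against 1.62%). The Cdk6 window held none of the 4. The interferon list was written from general knowledge of genes induced by interferon, so its share of the core does not bear on the knockouts. A match is a description of letters only.

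Ifit3, an antiviral protein gene with a near-identical copy that its probe set may also read, was at 5.68 to 6.39 in control and at 5.71, 6.08, 5.49 and 5.48 in the Itgb1 knockouts. The Itgb3 knockouts read 5.41, 5.63, 5.98 and 5.86 and the labelled double knockouts 5.15, 5.44 and 6.06 at the lowest, median and highest (mean difference −0.43, SE 0.148, adjusted p = 0.731). Xaf1, an interferon-induced regulator of apoptosis, was at 7.54 to 9.23 in control and at 6.61, 8.40, 7.80 and 7.96 in the Itgb1 knockouts. It was at 8.52, 8.40, 7.71 and 6.79 in the Itgb3 knockouts and 5.57 to 7.48 in the labelled double knockouts (mean −1.11, SE 0.357, adjusted p = 0.682). Only the labelled double knockouts were clear of the control range for Xaf1. As a mean over the list, set to 0 at the control mean, controls ran from −1.01 to 0.90, the Itgb1 knockouts from −1.25 to 0.45, the Itgb3 knockouts from −1.29 to 0.36 and the labelled double knockouts from −2.05 to −0.54. The controls alone thus spread at least as widely as either single knockout group, and the list median became −0.93 with control replicate 1 left out, −0.40 with control replicate 2 left out and −0.32 with no labelled double knockouts.

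Milk protein and secretory genes leaned the other way. Of 18 measured, 10 were higher in all 3 groups and 1 lower, 4 had an unadjusted p under 0.05 and 0 passed, with a median difference of 0.32 (0.33, 0.41 and 0.24). Muc15, a mucin of the milk fat globule membrane, read 8.59, 9.45, 9.84, 9.01 and 9.38 in control and 9.15, 10.84, 10.13 and 10.82 in the Itgb1 knockouts. It read 9.67, 10.61, 9.97 and 9.48 in the Itgb3 knockouts and had a median of 10.36 in the labelled double knockouts, which overlapped the controls (mean 0.82, SE 0.311, adjusted p = 0.744). The folate receptor gene Folr1 differed by 0.38, 0.47 and 0.23. Of the caseins, chosen after their values were seen, Csn1s1 differed by 0.55, 2.03 and 0.24, Csn1s2a by 0.93, 2.53 and 0.51, Csn2 by 0.68, 2.15 and 0.87 and Csn3 by 0.08, 0.11 and 0.01. The list mean was −0.26 to 0.20 in control, 0.29 to 0.80 in the Itgb3 knockouts, all above the controls, and overlapped them in the Itgb1 knockouts (−0.43 to 0.72) and labelled double knockouts (−0.25 to 0.90). The list median was 0.19 without control replicate 2.

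**Figure D4:**
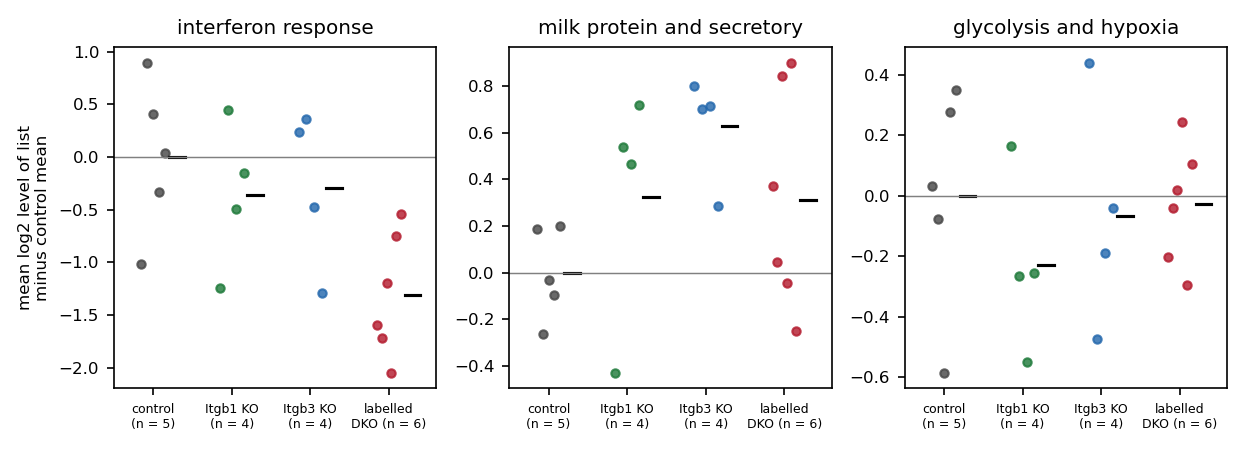
Mean log2 level of the measured members of 3 gene lists on each array (points), minus the control mean, with group means (bars). The interferon values of the controls spread from −1.01 to 0.90, and on the milk protein panel the 4 Itgb3 knockouts lie above all controls.

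Among p53 targets and arrest genes 11 of 17 were higher in all 3 groups and 1 lower (median 0.12, 0 passed). Aen, a p53-induced nuclease gene, was at 4.80 to 5.30 in control, 5.05 to 5.31 and 5.08 to 5.36 in the single knockouts, and 5.32 to 5.78 in the labelled double knockouts (mean 0.29, SE 0.0900, adjusted p = 0.682). Cdkn1a, the arrest gene of the list, chosen after its values were seen, differed in sign between groups (−0.09, −0.10 and 0.25). Its list median became 0.07 when control replicate 1 was left out and 0.20 when control replicate 2 was. In the cell cycle list 11 of 28 were higher and 4 lower, with the G1/S cyclin gene Ccne1 at 0.42, 0.32 and 0.35 (mean 0.37, SE 0.129, adjusted p = 0.744) beside the lower Cdk6, Cdk4 and Cdk2.

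Glycolysis and hypoxia genes were lower in all 3 groups for 13 of 27 and higher for 2, with a median of −0.11 and 0 at an unadjusted p under 0.05. The prolyl hydroxylase genes P4ha2 (−0.50, −0.36 and −0.18) and Egln3 (−0.26, −0.11 and −0.24) had the smallest p. With 1 array left out its median ran from −0.22 (control replicate 3) to −0.03 (control replicate 4). Among ATF4 and amino acid response genes 8 of 18 were lower and 3 higher, with the stress factor gene Ddit3 at −0.63, −0.38 and −0.45 (mean −0.49, SE 0.222, adjusted p = 0.744). Among growth factor pathways, the ErbB list had 2 of 14 members higher and 4 lower, the insulin and IGF list 6 of 20 and 1, and the TGF-beta list 5 of 25 and 1. The growth factor gene Igf2 differed by 0.24, 0.29 and 0.38 (mean 0.31, SE 0.0987, adjusted p = 0.682) and the ligand gene Tgfb2 by 0.33, 0.64 and 0.90 (mean 0.62, SE 0.237, adjusted p = 0.744). Igf2 was under the filter on 3 controls and 2 knockout arrays. Of the YAP and TAZ targets 1 of 19 was higher and 4 lower; Ptpn14, a phosphatase gene that restrains YAP, differed by 0.70, 0.29 and 1.01 (mean 0.67, SE 0.212, adjusted p = 0.682). Sterol synthesis genes were higher for 7 of 16 and lower for 2 (median 0.15, 0 at an unadjusted p under 0.05).

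**Figure D5:**
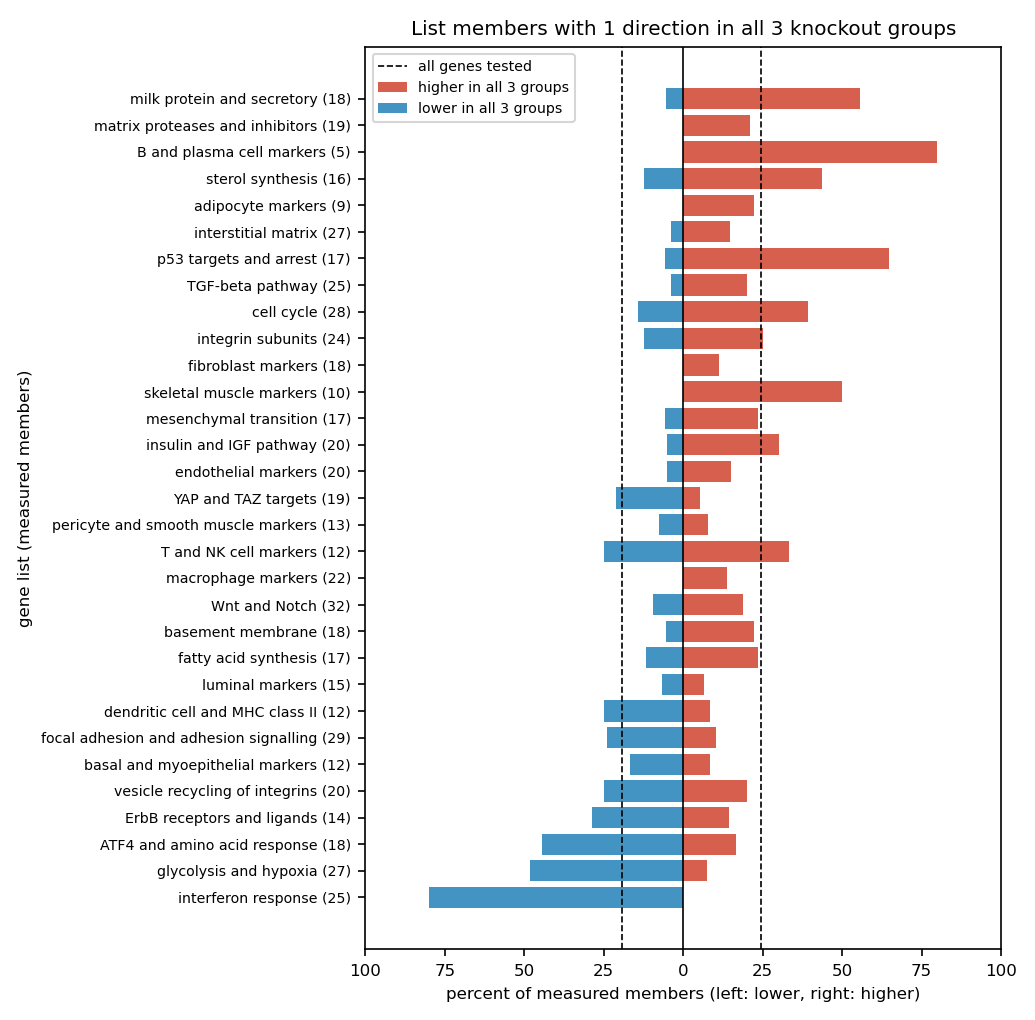
Percent of the measured members of each gene list that were higher (right) or lower (left) than control in all 3 knockout groups; dashed lines give the same shares over all genes tested (24.5% and 19.1%). The interferon list reaches furthest to the left, at 20 of 25 members.

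Among markers of other cell types, fibroblast markers had group medians of 0.30, −0.38 and 0.40, with 2 of 18 higher in all 3 groups and 0 lower, and list means of −0.31 to 0.64 in control and −1.44 to 0.99 over the knockouts. Interstitial matrix genes had 4 of 27 higher and 1 lower, endothelial markers 3 of 20 and 1, macrophage markers 3 of 22 and 0, T and NK cell markers 4 of 12 and 3, and B and plasma cell markers 4 of 5 and 0. Adipocyte markers had 2 of 9 higher and 0 lower, with the defining Adipoq and Lep not among the genes tested. Skeletal muscle list means ran from −0.62 to 2.05 in control, with control replicate 2, Itgb1 knockout replicate 1, Itgb3 knockout replicate 3 and labelled double knockout replicate 2 highest in their groups. The part of these cells in the differences above was not tested, beyond the covariates given with the alternatives.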

How the data were processed

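The deposited table gave normalized log2 values for 41345 probe sets of an Affymetrix array labelled over whole transcripts. The authors used Affymetrix Expression Console, per the submitters' processing notes, with no version stated; how background was corrected and probes were summarized is not given in the sources used. Of the probe sets, 23521 had 1 gene symbol, 1814 several and 16010 none. Probe sets with 1 symbol entered if they reached the table median (4.38) on at least 4 arrays, and of several per gene the one with the highest mean was used, leaving 14231 genes. Entrez identifiers of 14152 were in the RefSeq table (GRCm38.p6) and 0 symbols differed.

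limma 3.58.1 in R 4.3.3 fitted 1 mean per group to all 19 arrays (15 residual degrees of freedom, 18.7 after moderation). The tested contrast was the unweighted mean of the 3 knockout groups minus control (two-sided), adjusted by Benjamini-Hochberg across the 14231 genes, with a threshold of 0.05. A moderated F compared the knockout groups. The code was tested on simulated data. The number of arrays limits the precision.

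The comparison, the gene lists and the rules were chosen with earlier results of these data known. Predicted genes, clones, small RNAs, olfactory, vomeronasal and taste receptors and antigen receptor segments were counted, not named. The naming rule took genes of 1 direction in all 3 groups (12 per direction by smallest p, 5 per direction by the weakest group, and up to 2 members per list by smallest p) and added Itgb1, Itgb3 and Erbb2. Genes named outside it, such as list members and genes with 13 of 14 arrays beyond the controls, were chosen after their values were seen. Alternatives covered the filter, scaling, weighting, covariates and leaving out arrays or groups.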

Additional observations from a re-analysis of the deposited data

Results flagged for a closer look

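Single arrays stood apart from the others of their group, by a gap large for the group's range, in 25 of 372 gene and group pairs over the 93 named genes, where chance gives about 1 in 20, or 18.6. Values are log2 levels. In the control group this was replicate 2 for Mylpf (5.12, others 2.89 to 3.29), Ltf (4.58, others 5.70 to 6.08). In the Itgb1 knockout group this was replicate 1 for Zfp329 (7.12, others 6.32 to 6.45), Col18a1 (5.17, others 5.40 to 5.44), Thbs2 (8.89, others 7.51 to 7.60), H2-DMb1 (4.43, others 4.84 to 4.88), P4ha2 (5.19, others 4.35 to 4.45). It was also replicate 2 for Pygl (6.82, others 5.98 to 5.98), Cspg4 (5.43, others 5.17 to 5.21), Oxtr (4.68, others 4.90 to 4.92). In the Itgb3 knockout group this was replicate 1 for Zfp329 (6.58, others 6.28 to 6.31). Here too belongs replicate 2 for Vsnl1 (7.33, others 4.35 to 4.70), Itga2 (4.64, others 4.98 to 5.05). Here too belongs replicate 3 for Zfp456 (4.51, others 4.74 to 4.75), Tnni2 (6.34, others 5.38 to 5.52). In the labelled double knockout group this was replicate 1 for Tlcd2 (5.31, others 4.75 to 4.87). So was replicate 2 for Mylpf (6.16, others 3.10 to 4.03), Tnni2 (6.41, others 4.89 to 5.41). So was replicate 4 for Xbp1 (10.85, others 11.51 to 11.69). So was replicate 5 for Hhipl2 (6.67, others 9.33 to 10.29). So was replicate 6 for H2-Eb1 (4.35, others 4.60 to 4.73), H2-DMb1 (4.41, others 4.71 to 4.89), Ehf (9.10, others 9.56 to 9.72), Cldn3 (10.81, others 11.53 to 11.92), Rab11a (7.07, others 6.62 to 6.73).

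The pooled difference averaged groups that differed from each other for 6 named genes. The moderated F among the 3 knockout groups gave an adjusted p of 0.0018 for Itgb1, 0.0379 for Itgb3, 0.0409 for Itga2, 0.0166 for Cd14, 0.0166 for Foxd2os and 0.0324 for Wnt5a.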

How the results depend on the processing

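Over 33 alternatives and 93 named genes, 3047 of 3066 values kept their direction and side of the threshold, 11 lost it, 1 gained it and 7 reversed. Itgb1 alone passed in the main fit, so all 11 losses were its own, and it failed in 11 of the 33 alternatives. For the other genes, keeping the side mostly meant not passing again. Size was not part of this count: the lowest difference of Plcxd2 was 0.042, against 0.41 in the main fit. The genes passing in the pooled comparison, and those passing with 1 direction, numbered 0 in the 2-group fit, with array weights, and without the Itgb1 knockout or the labelled double knockout group, and 0 to 2 with 1 array left out. The count that differed among knockout groups was 84 with no filter, 547 with arrays centred on their medians, 43 after quantile normalization, 865 with array weights, 9 with fibroblast and adipocyte covariates, and 18 to 254 with 1 array left out. Genes of 1 direction numbered 6204 of 14231 in the main fit. They numbered 10251 with no filter, when more genes were tested, so that this count is not a larger share by itself. Without the labelled double knockouts they numbered 9475, when only 2 groups must share a sign. The exact permutation p of Itgb1 was 0.026 without the Itgb1 knockouts and 0.0451 without the labelled double knockouts, neither passing after adjustment, and that of Itgb3 was 0.795 without the Itgb3 knockouts, where its pooled log2 difference reversed to 0.065. Reversals were also seen for Mylpf (−0.0025 with values raised to the filter), Cldn3 (0.027 with array weights, and −0.084 to 0.0081 with 1 array left out) and Tnni2 (−0.093 to 0.45 with 1 array left out). Of the genes with an unadjusted p under 0.05, 64.4% were higher, against 51.7% with no filter, 61.5% with centred arrays and 55.9% after quantile normalization. The causes were not tested. No paired analysis was possible because the labels carry no replicate numbers. Brightness near background limits Plcxd2, Foxd2os, Ppp4r4, Mfsd2a, Dynll1, Vsnl1, Slc10a5, Igf2, Masp1, Wnt5a and Mylpf, among others.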
